A study of Homo sapiens with 90 samples.

Results

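Gene expression was compared between HepaRG cells exposed for 24 h to 10 µM imazalil and cells that received the DMSO vehicle alone. Of the 90 columns of the series, 3 hold cells given imazalil at 10 µM and 3 hold the common DMSO controls normalized together with the imazalil arrays, so 6 arrays make up the comparison. HepaRG, derived from a human liver tumor, differentiates in culture into a mixture that resembles hepatocytes and bile duct cells. Both groups had the same genotype, were plated on collagen in 96-well plates, were treated on the 8th day after plating and carried the same final share of DMSO, so the fungicide was the only labelled difference. The study gives its replicates as separate experiments on separate batches of cells, and the replicate number in the titles was used to pair a treated array with its control. The titles do not state that control and treated arrays of the same number shared a batch. Each array (an Affymetrix microarray of the whole transcriptome) measured pooled RNA of a culture, so fewer cells of a type and less RNA per cell cannot be told apart.

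Imazalil is an imidazole fungicide, one of the azoles, which block the fungal enzyme that removes a methyl group from lanosterol. In liver cells many azoles activate the receptors CAR and PXR, which switch on genes for drug oxidation, conjugation and efflux, and some activate AHR, the receptor that drives CYP1A1 and CYP1A2. The cytochromes P450 (CYP genes) are the best known of these targets. The account below turns to the genes outside that family.

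Levels are log2 expression values after RMA (a background correction, quantile normalization and probe summary), so a difference of 1 is a doubling. A gene was called when its adjusted p fell below 0.05 in limma, with the replicate number as a block and all 30 arrays of the imazalil set sharing the estimate of the spread. The 6 arrays correlated with each other at 0.990 to 0.995, and their medians lay between 2.82 and 2.90. Hepatocyte markers were at high levels, with ALB at 13.22 and SERPINA1 at 13.25 in the DMSO arrays. The mean over the 14 hepatocyte markers was 11.11 to 11.19 in the DMSO arrays and 10.85 to 11.04 in the imazalil arrays, without overlap. The mean over the 10 biliary markers was 5.55 to 5.63 with DMSO and 5.74 to 5.79 with imazalil, again without overlap. Of those markers 4 of 10 had a positive difference, beside 10667 of 19774 over all genes. Their median was -0.05, with SPP1 (0.86) and AP1M2 (0.68) the 2 that passed. The markers EPCAM, CFTR, KRT7 and CLDN4 stayed between 2.39 and 2.61 with DMSO, at the dim end of the array. Mesenchymal markers averaged 5.33 to 5.47 with DMSO and 5.18 to 5.36 with imazalil. The endothelial list ran from 3.01 to 3.10 with DMSO and from 2.98 to 3.01 with imazalil, and the immune list from 3.39 to 3.40 and from 3.26 to 3.39. The part of these shifts in the results below was not tested.

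At 10 µM, 104 of 19774 genes were higher than with DMSO (0.526%) and 78 were lower (0.394%). The P450 genes gave the largest values, with CYP1A1 higher by 5.41, CYP1A2 by 3.57, CYP2B6 by 3.33 and CYP3A4 by 2.70. Outside that family, 93 genes rose and 73 fell. The median rise was 0.59 and the median fall was -0.59, and 8 rises and 7 falls exceeded 1 on the log2 scale. A further 31 rises and 23 falls were smaller than 0.5. In every called gene the 3 paired differences had the same sign, and in 176 of the 182 called genes the imazalil and DMSO values did not overlap. That separation was found in 2810 of all genes (14.2%). The calls came from these same arrays with the replicate block, so both counts describe the called genes and test nothing. Without the replicate block, 82 genes were higher (0.415%) and 49 were lower (0.248%), and 71 of the 93 rises and 45 of the 73 falls outside P450 were called in that fit too. Leaving out one replicate number kept between 16 and 27 of the 93 rises and between 10 and 19 of the 73 falls past the threshold.

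**Figure D1:**
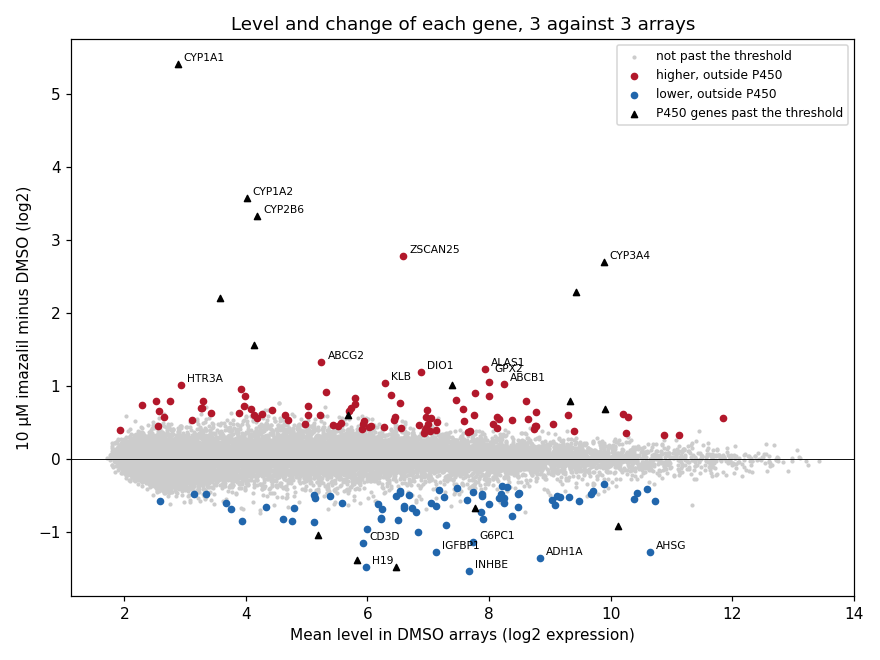
Each point is a gene, with its mean level in the 3 DMSO arrays (log2 expression, horizontal) and the difference of 10 µM imazalil from DMSO (log2, vertical). Red and blue circles are the 93 higher and 73 lower genes outside P450 and black triangles are P450 genes past the threshold, and apart from ZSCAN25 the circles run from -1.52 to 1.33.

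ALAS1, the first and rate-limiting enzyme of heme synthesis, read 8.03, 7.87 and 7.90 in the DMSO arrays of replicates 1, 2 and 3 and 9.32, 9.10 and 9.11 in the imazalil arrays. Every imazalil array lay above every control, and the gene was 2.37-fold higher (difference 1.24, SE 0.08, n = 3 pairs, limma adjusted p = 4.65e-10). POR, the reductase that passes electrons to all microsomal P450 enzymes, read 8.01, 7.70 and 7.58 with DMSO and 8.81, 8.60 and 8.61 with imazalil. Its groups also lay apart, with a difference of 0.91 (SE 0.10, limma adjusted p = 3.74e-06). Among efflux pumps, ABCG2 (BCRP), which exports drugs and urate, read 5.49, 5.48 and 4.75 with DMSO and 6.63, 6.82 and 6.25 with imazalil. The control of replicate 3 was the lowest array, and the groups did not overlap (difference 1.33, SE 0.12, limma adjusted p = 5.08e-08). ABCB1 (P-glycoprotein) read 8.36, 8.27 and 8.12 with DMSO and 9.35, 9.26 and 9.25 with imazalil, again without overlap (difference 1.04, SE 0.08, limma adjusted p = 4.30e-09). Both of its probe sets rose, the other by 1.48.

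The list of CAR and PXR targets outside P450 had a median difference of 0.27, beside 0.01 for all genes. Of its 16 measured genes 6 rose and none fell. Besides ALAS1, ABCB1 and POR these were TSKU, a secreted protein of the liver (0.80), SULT2A1, which sulfates steroids and bile acids (0.63), and the canalicular pump ABCC2 (0.59). The list also held receptor genes. NR1I3, which encodes CAR, had a difference of -0.08 (adjusted p = 0.937), and RXRA 0.10 (adjusted p = 0.853). Of the list, 6, 6 and 5 members were called when replicates 1, 2 and 3 were left out. The list of AHR targets outside P450 held 10 genes, with AHR and ARNT themselves among them. Of these, ALDH3A1, an aldehyde dehydrogenase, was the one called (0.55, limma adjusted p = 0.0026). It was called without replicate 1 and lost its call without replicate 2 or 3. The efflux exchanger gene SLC47A1 (MATE1) rose by 0.69 among 9 measured hepatic transporters, and SLC10A1, the sodium-dependent bile acid importer, fell by 0.39.

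ZSCAN25 had the largest difference outside P450. It encodes a zinc finger protein and lies next to CYP3A5 in the RefSeq gene table. Its values were 6.60, 6.54 and 6.63 with DMSO and 9.36, 9.38 and 9.38 with imazalil, a gap of 2.78 (SE 0.19, limma adjusted p = 8.22e-10). The other probe sets of the gene did not follow: 1 of its 3 probe sets rose, and their differences ran from -0.20 to 2.78. RNA of ZSCAN25 and transcripts reading on from the CYP3A genes beside it cannot be told apart by this probe set.

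A pair of endocrine genes rose as much as the pumps. DIO1, the deiodinase that activates thyroid hormone in liver, read 6.93, 6.79 and 6.90 with DMSO and 8.25, 7.87 and 8.11 with imazalil. All treated arrays were higher, and the gene was 2.30-fold up (difference 1.20, SE 0.12, limma adjusted p = 6.34e-07). KLB, the co-receptor through which FGF19 and FGF21 signal in hepatocytes, read 6.24, 6.30 and 6.32 with DMSO and 7.35, 7.31 and 7.34 with imazalil. Its SD was 0.04 and 0.02 in the groups, against a difference of 1.05 (SE 0.08, limma adjusted p = 7.63e-09), and both of its probe sets rose.

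**Figure D2:**
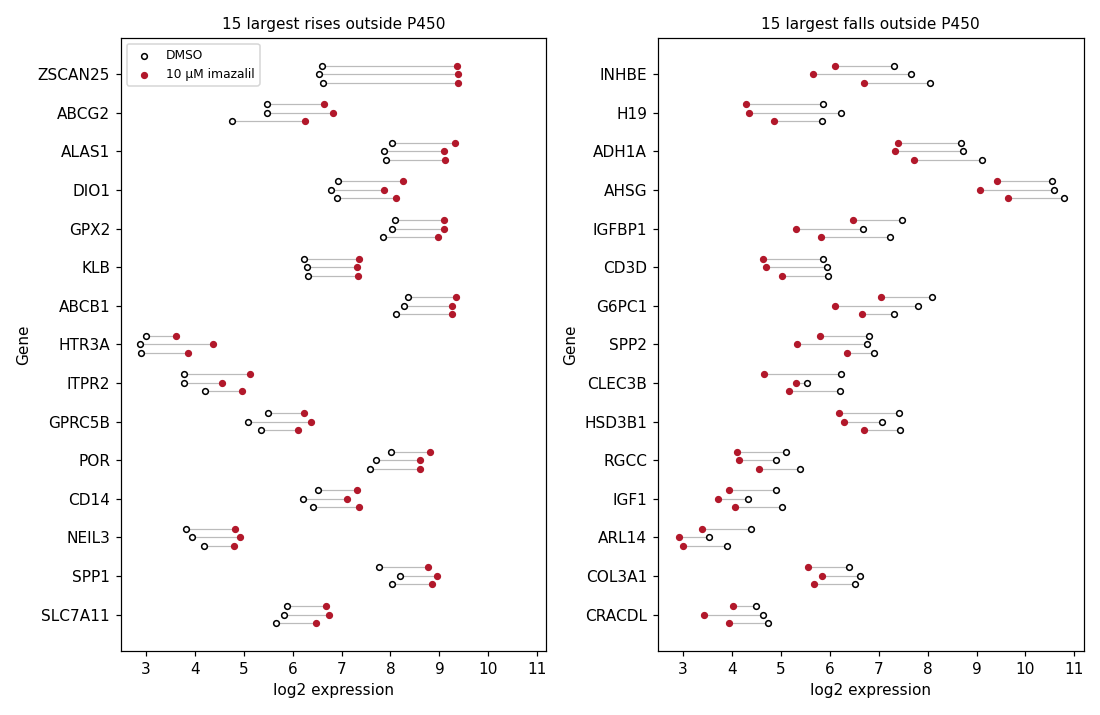
Each row is one of the 15 largest rises (left) or falls (right) outside P450, and the 3 lines in a row join the DMSO array (open circle) and the 10 µM imazalil array (filled circle) of replicates 1, 2 and 3 from top to bottom, on the log2 expression scale. In all 30 genes the filled circles lie on one side of the open circles, and the shortest line is that of CLEC3B in replicate 2.

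NRF2 is a transcription factor that switches on its target genes under oxidative or electrophilic stress. Of 15 measured NRF2 targets, 6 rose and none fell, and the list median was 0.34. SLC7A11, the cystine importer that feeds glutathione synthesis, read 5.88, 5.83 and 5.67 with DMSO and 6.69, 6.74 and 6.47 with imazalil. The groups were apart, by 0.84 (SE 0.09, limma adjusted p = 3.00e-06). The aldo-keto reductase AKR1B10 rose by 0.56, SRXN1, which repairs peroxiredoxins, by 0.54, and PGD, an NADPH-producing enzyme of the pentose phosphate pathway, by 0.48. TKT (0.34) and TXNRD1 (0.34) passed with the block and not without it, and NQO1 was at 0.27 (adjusted p = 0.433). With each replicate number left out in turn, 1 member of the list was called each time.

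GPX2, a glutathione peroxidase of epithelia that was not on that list, read 8.09, 8.03 and 7.85 with DMSO and 9.09, 9.09 and 8.97 with imazalil. The 3 treated arrays stood well above the controls, with a difference of 1.05 (SE 0.09, limma adjusted p = 4.14e-08), while its dimmer second probe set differed by 0.02. The letters TGACNNNGC, the core of the antioxidant response element to which NRF2 binds, were searched on both strands in the 250 bases before the gene start of RefSeq promoters (GRCh38.p14). They occurred in 11% of 27305 promoters and in 10 of the 71 promoters that matched the 93 rises (14.1%). Of the 60 promoters that matched the 73 falls, 5 held them (8.33%), those of CD3D and G0S2 among them. The stretches around the match in GPX2 (chr14:64942829-64942897 on the minus strand), PGD (chr1:10398833-10398901 on the plus strand) and KLB (chr4:39406853-39406921 on the plus strand) are given because these genes rose and carry it, with the matched letters in capitals. They were chosen after the matches were seen, and KLB, like GPX2, was not on the list of NRF2 targets.
GPX2: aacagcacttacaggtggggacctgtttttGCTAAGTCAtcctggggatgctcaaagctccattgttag
PGD: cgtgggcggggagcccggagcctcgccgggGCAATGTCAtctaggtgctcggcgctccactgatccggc
KLB: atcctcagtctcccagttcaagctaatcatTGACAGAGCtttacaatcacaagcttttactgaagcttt
In GPX2 and PGD the match lies on the opposite strand to the gene, and in KLB on the strand of the gene.

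All 18 measured genes of cholesterol synthesis had positive differences, from 0.01 to 0.65 with a median of 0.23, and 5 of them passed the test. Over all genes, 10667 of 19774 differences were positive. ACAT2, which condenses acetyl-CoA at the start of the pathway, read 8.90, 8.52 and 8.87 with DMSO and 9.44, 9.34 and 9.46 with imazalil. Its groups did not overlap (difference 0.65, SE 0.11, limma adjusted p = 0.0033). MVD of the mevalonate steps rose by 0.46, LSS, which closes the sterol ring, by 0.46, and DHCR7 and EBP of the last steps by 0.39 and 0.36. CYP51A1, the human counterpart of the fungal azole target, was at 0.21 (adjusted p = 0.38). No member of this list was called when any replicate number was left out, and 4 were called without the block. Of 10 genes of sterol sensing and uptake none passed by the probe set that stood for it, and 4 were positive. INSIG1 was at 0.27, but another of its 3 probe sets passed at 0.41 (limma adjusted p = 0.0196). MYLIP was at -0.30, and its 6 probe sets ran from -0.30 to 0.44. Among 21 genes of fatty acid and triglyceride synthesis, ACSS2, which makes cytosolic acetyl-CoA, rose by 0.48 and TMEM97, a sterol-responsive membrane protein, by 0.58.

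The CCAAT box (CCAAT on either strand), which the factor NF-Y binds, was present in 33% of all promoters. It was in 30 of the 71 promoters of rises (42.3%) and in 17 of the 60 promoters of falls (28.3%). Of the 5 sterol synthesis genes that rose, 4 had a promoter in the RefSeq table, and all 4 held the box. The stretches are printed because these genes moved together, with the box in capitals and read as CCAAT or, on the other strand, ATTGG. They are MVD (chr16:88663142-88663280 on the minus strand), LSS (chr21:46228890-46228954 on the minus strand), EBP (chrX:48521587-48521807 on the plus strand) and DHCR7 (chr11:71448407-71448517 on the minus strand).
MVD: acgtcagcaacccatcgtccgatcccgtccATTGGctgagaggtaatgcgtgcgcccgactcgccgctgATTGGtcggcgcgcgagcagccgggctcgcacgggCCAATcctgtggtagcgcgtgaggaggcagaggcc
LSS: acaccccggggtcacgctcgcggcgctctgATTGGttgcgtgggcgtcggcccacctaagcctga
EBP: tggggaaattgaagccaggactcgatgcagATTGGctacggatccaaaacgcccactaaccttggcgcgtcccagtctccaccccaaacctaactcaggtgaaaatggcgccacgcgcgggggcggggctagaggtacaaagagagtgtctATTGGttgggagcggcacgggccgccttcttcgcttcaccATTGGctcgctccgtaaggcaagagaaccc
DHCR7: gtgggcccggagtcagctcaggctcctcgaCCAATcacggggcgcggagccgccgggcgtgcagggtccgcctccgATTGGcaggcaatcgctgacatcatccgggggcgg
MVD and EBP hold 3 boxes each, DHCR7 holds 2 and LSS holds 1. The core of the xenobiotic response element (GCGTG, either strand) was likewise in all 4. It was in 31.9% of all promoters, in 27 of the 71 promoters of rises (38%) and in 13 of the 60 promoters of falls (21.7%). The sterol regulatory element (TCACNCCAC, either strand) was in 0.875% of all promoters and in none of these 4. Absence of these letters says nothing about other forms of the element.

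The integrated stress response, in which ATF4 raises genes for amino acid supply, was split. Of its 26 genes 24 had positive differences, beside 10667 of 19774 over all genes. The list median was 0.22, and 5 genes rose and 1 fell. Apart from SLC7A11 the rises were PHGDH of serine synthesis (0.66), ASNS, the asparagine synthetase (0.56), the stress hormone GDF15 (0.56) and the transcription factor ATF3 (0.45). GDF15 read 9.77, 7.98 and 8.19 with DMSO and 10.09, 8.91 and 8.62 with imazalil. Cells of replicate 1 were highest in both groups, so the groups overlapped although each pair rose, and the call rests on the block (adjusted p = 0.889 without it, and 0.898 for ATF3). Of the 5 rises 3, 1 and 1 were called without replicates 1, 2 and 3, and the fall of INHBE each time. None of the 15 chaperone genes of the unfolded protein response passed, and all 15 differences were below 0, with a median of -0.13.

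The remaining leading rises belong to no common list. SPP1 (osteopontin), a marker of biliary cells, read 7.76, 8.19 and 8.02 with DMSO and 8.76, 8.95 and 8.85 with imazalil, so that the groups lay apart (difference 0.86, SE 0.11, limma adjusted p = 2.92e-05). AP1M2, an adaptor subunit of polarized epithelia on the same marker list, rose by 0.68. The other 8 biliary markers did not pass, and KRT19 was at -0.17. CD14, the lipopolysaccharide co-receptor that hepatocytes also make, read 6.52, 6.22 and 6.42 with DMSO and 7.31, 7.12 and 7.36 with imazalil. It was the one immune marker that rose (0.88, limma adjusted p = 4.03e-06). PTPRC, CD68 and LYZ, which define immune cells, lay between 2.11 and 2.69 in the DMSO arrays, near the floor of the array.

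The orphan receptor gene GPRC5B rose by 0.92, the DNA glycosylase NEIL3 by 0.87, the inositol trisphosphate receptor ITPR2 by 0.96 and the serotonin receptor subunit HTR3A by 1.02. These were dim genes with DMSO means between 2.93 and 5.31. HTR3A read 3.00, 2.88 and 2.90 with DMSO and 3.62, 4.36 and 3.86 with imazalil. Its groups were apart, but the pairs differed from 0.62 to 1.48 and the call was lost without replicate 2. ITPR2 was called in the blocked fit alone of those with and without the block (adjusted p = 0.0413 and 0.077), and it lost its call against the low imazalil concentrations as reference (0.41, adjusted p = 0.363). The calls of GPRC5B and NEIL3 were lost without replicate 2, and that of NEIL3 without replicate 1 too. GPRC5B had 1 of 4 probe sets past the threshold, with differences from -0.17 to 0.92.

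The largest fall outside P450 was INHBE, which encodes a subunit of activin E, a hormone made almost only by the liver. It read 7.32, 7.67 and 8.04 with DMSO and 6.11, 5.65 and 6.70 with imazalil. The spread between replicates was wide, and still the highest treated array lay below the lowest control (difference -1.52, SE 0.17, limma adjusted p = 6.10e-06). H19, a fetal noncoding RNA that is imprinted with IGF2, read 5.86, 6.22 and 5.84 with DMSO and 4.29, 4.34 and 4.86 with imazalil. Its groups were apart (difference -1.48, SE 0.21, limma adjusted p = 0.000259), the call was lost without replicate 2, and its second probe set differed by -0.44 and did not pass. AHSG (fetuin-A), a secreted inhibitor of calcification and of the insulin receptor, read 10.55, 10.58 and 10.79 with DMSO and 9.42, 9.06 and 9.65 with imazalil. Both of its probe sets fell, by 1.26 and 1.35 on the log2 scale. AHSG was the one hepatocyte marker of 14 that passed. Of the 14, 2 had a positive difference, beside 10667 of 19774 over all genes. The median of the 14 was -0.07, with ALB at -0.03 and TTR at 0.03.

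Of 23 measured growth factor, hepatokine and fetal liver genes, 6 fell and 2 rose, the 2 being DIO1 and KLB. The falls were INHBE, H19, AHSG, IGFBP1, INHBB and IGF1. IGFBP1, which binds insulin-like growth factors and is repressed by insulin, read 7.48, 6.68 and 7.23 with DMSO and 6.48, 5.31 and 5.81 with imazalil. Replicate 2 was lowest in both groups, the pairs fell by 1.00, 1.37 and 1.42, and the call was lost without replicate 3 (difference -1.26, SE 0.18, limma adjusted p = 0.000265). IGF1 fell by 0.85 but was called neither without the block (adjusted p = 0.133) nor without any one replicate, and the 5 probe sets of the gene ranged from -0.85 to 0.20. INHBB, another activin subunit, fell by 0.52. FGF21 was at 0.09 (adjusted p = 0.902).

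Of 16 measured genes of glucose output and control 4 fell and none rose. G6PC1, the enzyme that releases free glucose from the hepatocyte, read 8.09, 7.81 and 7.31 with DMSO and 7.04, 6.10 and 6.65 with imazalil. The groups were apart, both probe sets fell and the call was lost without replicate 2 (difference -1.14, SE 0.17, limma adjusted p = 0.000298). SLC2A2 (GLUT2), the glucose transporter of the hepatocyte, fell by 0.52, and PPP1R3C, which targets a phosphatase to glycogen, by 0.51. PPP1R3C was called with the block only (adjusted p = 0.692 without it). IGFBP1 was the other. The median of the list was -0.08, and 2, 1 and 1 of its falls were called without replicates 1, 2 and 3.

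ADH1A, an alcohol dehydrogenase, read 8.69, 8.72 and 9.12 with DMSO and 7.40, 7.34 and 7.73 with imazalil. The pairs fell by 1.29, 1.38 and 1.39, the groups were far apart, and the call held without each replicate (difference -1.35, SE 0.12, limma adjusted p = 3.71e-08). The closely related ADH1B was at -0.15 (adjusted p = 0.7) and ADH1C at 0.09 (adjusted p = 0.897), and signal of such near-identical copies can mix on a probe set. ADH6 fell by 0.46, so 2 of 10 genes of alcohol and aldehyde metabolism fell. Of 17 genes of steroid and retinoid metabolism, HSD3B1, which makes ketosteroids, was the one that fell. It read 7.40, 7.06 and 7.43 with DMSO and 6.20, 6.29 and 6.70 with imazalil. No treated array reached the controls (difference -0.90, SE 0.12, limma adjusted p = 6.63e-05), and the call was lost without replicate 1. Of 14 measured conjugation enzymes SULT2A1 rose, as given above, and SULT1E1, the estrogen sulfotransferase, fell by 0.81, a call that was lost whichever replicate was left out.

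CD3D, a subunit of the T cell receptor complex, had 5.87, 5.95 and 5.97 with DMSO and 4.64, 4.69 and 5.02 with imazalil. The groups were apart (difference -1.15, SE 0.14, limma adjusted p = 1.49e-05), while CD3E, its partner in T cells, stood at 2.51 in the DMSO arrays and differed by 0.11 (adjusted p = 0.919). COL3A1, a fibrillar collagen chain, read 6.39, 6.63 and 6.51 with DMSO and 5.54, 5.83 and 5.68 with imazalil. Its treated arrays were all lower (-0.82, SE 0.10, limma adjusted p = 2.44e-05), but 1 of its 5 probe sets passed, and 8 other mesenchymal markers did not pass, with COL1A1 at -0.22. SPP2, a secreted bone-binding protein of the liver, fell by 1.00 and CLEC3B (tetranectin) by 0.95. RGCC, a regulator of the cell cycle, fell by 0.85, the small GTPase ARL14 by 0.84 and CRACDL by 0.82. Of these, SPP2 alone was also called without the block, and each lost its call without at least one replicate.

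EGLN3, an oxygen sensor that is itself a hypoxia target, fell by 0.77 among 19 genes of glycolysis and hypoxia. PROX1, a transcription factor of hepatocyte identity, fell by 0.72 among 9 measured hepatic transcription factors. Of its 4 probe sets 1 passed, and the next brightest was at -0.34 (limma adjusted p = 0.33). CIDEB and G0S2 of lipid droplets fell by 0.61 and 0.56, of 15 lipoprotein and lipid droplet genes. CYP8B1, which sets the cholic acid share of bile acids, and SLC10A1 were the 2 of 16 bile acid genes that fell, by 0.67 and 0.39. The complement gene C8A fell by 0.38 among 20 complement and coagulation genes. The chemokine genes CCL20 and CXCL2 fell by 0.53 and 0.48 among 12 NF-kB and cytokine genes, and CCN2, a matrix protein, by 0.33. CCL20 read 9.38, 7.44 and 7.68 with DMSO and 8.62, 7.02 and 7.27 with imazalil, so that the groups overlapped. G0S2, C8A, CCL20, CXCL2, CCN2, CYP8B1, SLC10A1 and ADH6 were not called without the block. The calls of PROX1, C8A, CCL20, CXCL2, CCN2, SLC10A1 and ADH6 were lost whichever replicate was left out. That of EGLN3 was lost without replicate 2 or 3, and those of CIDEB, G0S2 and CYP8B1 without replicate 1 or 2.

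The TATA box (TATAAA, either strand) was found in 11.1% of all promoters. It was in 16 of the 60 promoters that matched the 73 falls (26.7%) and in 6 of the 71 of the rises (8.45%). The last bases before the gene start are shown for 4 genes that fell, from the glucose, conjugation, chemokine and matrix groups, with the box in capitals. They are G6PC1 (chr17:42900740-42900798 on the plus strand), SULT1E1 (chr4:69860146-69860204 on the minus strand), CCL20 (chr2:227813783-227813841 on the plus strand) and CCN2 (chr6:131951373-131951434 on the minus strand), picked after the matches were seen.
G6PC1: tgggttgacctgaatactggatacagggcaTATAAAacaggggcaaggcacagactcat
SULT1E1: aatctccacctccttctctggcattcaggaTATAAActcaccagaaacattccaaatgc
CCL20: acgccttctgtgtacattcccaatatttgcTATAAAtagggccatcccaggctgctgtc
CCN2: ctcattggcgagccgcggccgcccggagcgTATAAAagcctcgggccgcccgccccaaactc
In all 4 the box begins within 32 bases of the gene start. No test was made of these shares, and a match is letters in a window, not a bound site.

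Many programs gave no call. By the probe set that stood for each gene, no member passed among 15 measured genes of PPARA, its targets and fatty acid oxidation (median 0.00). The same held for 10 heat shock genes, 10 p53 targets, 12 acute phase genes, 11 interferon genes and 8 metallothionein genes. It also held for 15 genes of the urea cycle and amino acid breakdown, 10 glucocorticoid receptor targets and 11 ribosomal protein genes. The acute phase protein CRP was at -0.68 with an SE of 0.21 (adjusted p = 0.181), while its other probe set passed at -0.76 (limma adjusted p = 0.0473). VNN1 was at -0.43, HAL at -0.57, SGK1 at -0.36, IFI27 at -0.35, TP53I3 at -0.27, HSPE1 at 0.25 and ARG1 at 0.37, and none of them passed. All 15 oxidative phosphorylation genes had positive differences, from 0.06 to 0.23, and none passed. Positive differences were found in 10667 of all 19774 genes. Among 16 cell cycle genes 14 were positive with a median of 0.21, led by CDK1 at 0.36 (adjusted p = 0.202). One other of the 4 probe sets of CDK1 passed, at 0.38 (limma adjusted p = 0.0217). Among 11 immediate early genes only ATF3 passed.

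**Figure D3:**
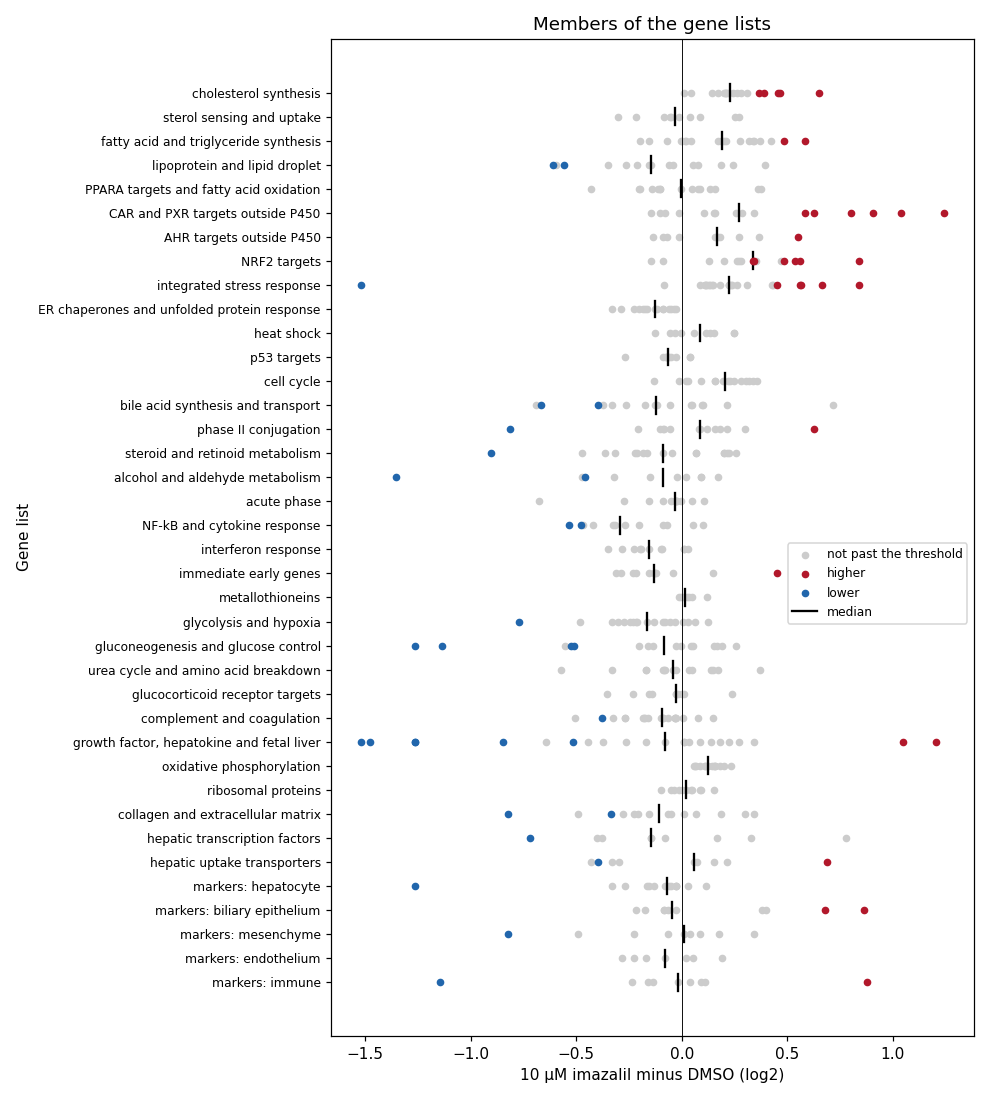
Each row is a gene list and each point a measured member, placed by its difference of 10 µM imazalil from DMSO (log2). Red points rose, blue points fell, gray points did not pass and the black bar is the list median, which lies between -0.29 and 0.34 in every list.

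The lower concentrations of imazalil place these differences in series. Of the 15 largest rises, 15 were above DMSO at 1 µM with a median difference of 0.25, and 15 at 3 µM with a median of 0.41, against 1.02 at 10 µM. Of the 15 largest falls, 12 were below DMSO at 1 µM and 15 at 3 µM, where the median fall was 0.26 against 1.00 at 10 µM. At 0.3 µM and below, the median of either set moved no more than 0.154 from the DMSO level. At those concentrations 6 to 13 of the rises were above DMSO and 1 to 11 of the falls below it. Both counts were highest at 0.003 µM, so the direction alone does not set 1 µM apart. These genes were chosen at 10 µM, so the figures describe them and test nothing. ALAS1 read 8.05 ± 0.12 at 1 µM, 8.29 ± 0.17 at 3 µM and 9.18 ± 0.12 at 10 µM (mean ± SD, n = 3), against 7.94 ± 0.09 with DMSO. ADH1A read 8.69 ± 0.22, 8.22 ± 0.26 and 7.49 ± 0.21 at the same concentrations, against 8.84 ± 0.24. With the pooled arrays of the 4 lowest imazalil concentrations (0.001 to 0.03 µM) in place of DMSO, 78 of the 93 rises and 68 of the 73 falls were called.

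**Figure D4:**
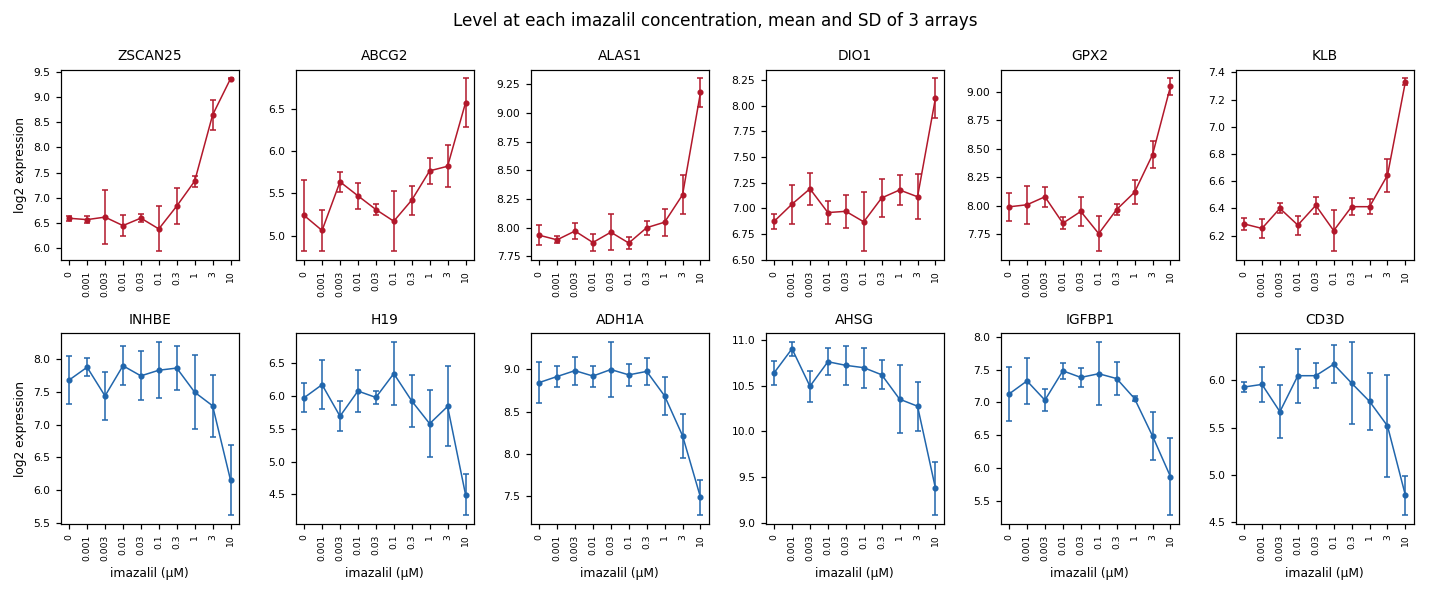
Each panel shows a gene at DMSO (0) and the 9 imazalil concentrations in µM, spaced evenly, with the mean and SD of 3 arrays on a log2 expression axis of its own that does not start at 0. The 6 largest rises are in red and the 6 largest falls in blue, and in all 12 the 10 µM point lies farthest from the DMSO level.

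Fenbuconazole, a triazole fungicide, was given at the same 10 µM for the same time, which allows one pair of related compounds to be set side by side. The ring differs: imidazole has a pair of nitrogens and triazole has another nitrogen in place of a carbon. The same 3 DMSO arrays served both, so each set's DMSO mean was subtracted and the treated arrays were then tested against each other. Over all genes 38 were higher with imazalil (0.192%) and 50 were lower (0.253%). Of the 15 largest rises 8 were higher with imazalil than with fenbuconazole, and of the 15 largest falls 2 were lower. The genes were picked on the imazalil arrays, which favors such a gap. ALAS1 differed from DMSO by 1.24 with imazalil and 0.39 with fenbuconazole, a gap of 0.85 (SE 0.07, limma adjusted p = 1.96e-10). ABCG2 stood at 1.33 and 0.38, and GPX2 at 1.05 and 0.32.

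In cholesterol synthesis the gap ran the other way. All 5 members that rose with imazalil were lower than with fenbuconazole, and so were 12 of the 18 measured. MVD was at 0.46 with imazalil and 1.54 with fenbuconazole, a gap of -1.08 (SE 0.11, limma adjusted p = 7.00e-09). HMGCS1, which did not pass with imazalil (0.20), stood at 1.28 with fenbuconazole. No difference between the compounds was called for INHBE (95% interval of the gap -0.39 to 0.55), KLB (-0.32 to 0.10), DIO1 (-0.08 to 0.39) or SLC7A11 (-0.20 to 0.19). The interval for AHSG, -0.72 to -0.14, leaves room for a deeper fall with imazalil although its adjusted p was 0.355.

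**Figure D5:**
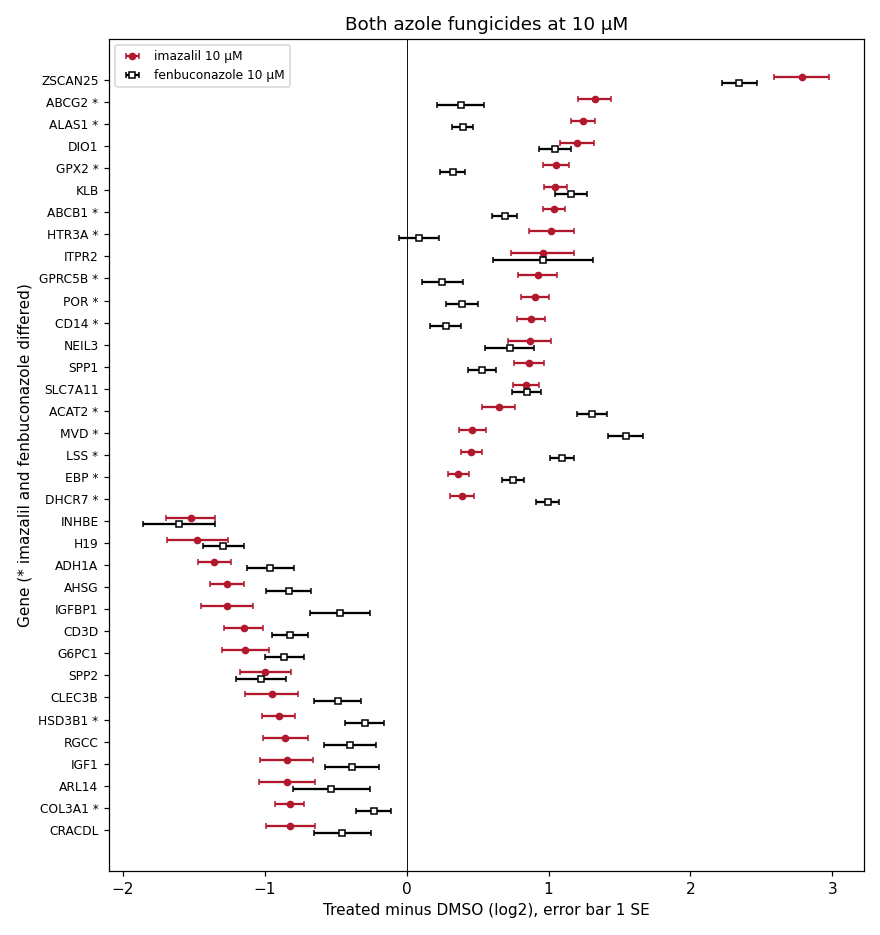
Differences from DMSO (log2, with 1 SE) for imazalil (filled circles) and fenbuconazole (open squares) at 10 µM, for the 15 largest rises, the 5 sterol synthesis genes that rose and the 15 largest falls with imazalil. A star marks the genes whose imazalil and fenbuconazole arrays differed, 8 of the rises, all 5 sterol genes and 2 of the falls.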

How the data were processed

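The authors normalized the arrays by RMA, once per chemical and each time with the 3 shared DMSO arrays, and deposited log2 values. RMA and Partek are named in the submitters' processing notes. Tool versions were not given in the sources used here. No array was dropped or imputed. Of the 54613 probe sets tested (controls left out), 40914 carried 1 gene symbol in the platform annotation, 864 several and 12835 none. Each gene was represented by 1 such probe set, the brightest on average across the 30 arrays of the imazalil set.

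Group means were fitted with limma 3.58.1 in R 4.3.3 with the replicate number as a block, because the study's replicates are separate batches of cells. That the same number in the titles marks the same batch is an assumption. The deviations of same-numbered imazalil and DMSO arrays correlated at 0.14, 0.21 and 0.25. Across groups of the imazalil set, 23 of 30 arrays correlated best with an array of their own number. The mean correlation was 0.09 for the same number and -0.05 for other numbers. P values were adjusted by Benjamini-Hochberg over all probe sets. The study's methods name no block, and the fit without it is an alternative. For the comparison with fenbuconazole, each set's DMSO mean was subtracted and the 54 treated arrays were fitted. The fits were also run on data simulated from the same model with known differences, which cannot show whether the block suits these arrays. Figures were drawn with matplotlib 3.10.9.

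Named were the 15 largest called rises and falls outside P450, up to 4 called members of each list (or 2 as values), 4 P450 genes and markers. The largest rises and falls also needed 3 paired differences of the same sign, which every called gene had. Genes named beyond that were chosen after their values were seen. The comparison, lists and rules were chosen with earlier results of these data known. Arrays have no counting depth, so their number limits the precision.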

Additional observations from a re-analysis of the deposited data

Results flagged for a closer look

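Of the 30 largest rises and falls outside P450, 10 differed between imazalil and fenbuconazole at 10 µM when the treated arrays were tested against each other. The gap (imazalil minus fenbuconazole, log2) was 0.95 for the efflux pump ABCG2, 0.93 for HTR3A, 0.85 for ALAS1, 0.73 for GPX2, 0.67 for GPRC5B, 0.60 for CD14, 0.52 for POR and 0.35 for ABCB1. It was -0.61 for HSD3B1 and -0.59 for COL3A1. The limma adjusted p of these gaps ran from 1.96e-10 for ALAS1 to 0.0355 for ABCB1. The genes were selected on the imazalil arrays that enter the test.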

How the results depend on the processing

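Alternatives were run for 93 named genes. Of the 65 that were called, none changed sign under any of them. Of the 28 not called, MYLIP, OAS2 and MT1E changed sign with the mean of their probe sets, CCNE2 against the low concentrations, and RRM2B, SLC30A1 and MT1E without one replicate. Against DMSO, 104 genes were higher and 78 lower. Without the replicate block 49 were lower. The 6 arrays alone gave 28 higher and 21 lower with the replicate block, and 19 and 9 without it. The mean of a gene's probe sets gave 172 and 135, the 4 lowest concentrations as reference gave 222 and 276, and a mean-variance trend gave 132 lower. Leaving out one replicate gave 29 to 38 higher and 15 to 25 lower. Against fenbuconazole, where 38 were higher and 50 lower, the 6 arrays gave 2 and 2 with the replicate block, and leaving out one replicate gave 8 to 15 and 21 to 28. Of the 30 largest changes, 24 were called without the replicate block, 22, 20 and 23 without replicates 1, 2 and 3, and 14 in the 6 arrays alone without the replicate block, where ABCG2, POR, INHBE, G6PC1 and IGFBP1 were among those lost.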

Other observations

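Some called genes outside the lists are named here after their values were seen, with no list behind the choice. NCAPH of condensin rose by 0.61, CENPM of the centromere by 0.60, SPAG5 of the spindle by 0.49, KIF4A, a chromosome-bound motor, by 0.46, SPDL1 of the kinetochore by 0.44, RFC5 of the clamp loader by 0.42, BUB1B of the spindle checkpoint by 0.39 and the primase PRIM1 by 0.35. RFC5, BUB1B and PRIM1 were not called without the replicate block (adjusted p = 0.0581, 0.0766 and 0.0905). None of the 16 genes of the cell cycle list passed by the probe set that stood for it.

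Some falls were of genes for plasma proteins, again picked after their values were seen. AFM, the vitamin E binding afamin, fell by 0.65, the complement gene C8B by 0.64, HRG, the histidine-rich glycoprotein, by 0.51, LEAP2, the ghrelin receptor antagonist, by 0.54, ANG (angiogenin) by 0.58, PGLYRP2 by 0.48 and SERPINA7, the thyroxine-binding globulin, by 0.41. C8B and LEAP2 were not called without the block (adjusted p = 0.154 and 0.0528). Among the lists, 0 of 12 acute phase genes and 1 of 20 complement and coagulation genes were called in the limma fit. ALB, APOA1, TF and SERPINA1 were at -0.03, -0.06, -0.17 and -0.08 and did not pass. TXNIP, a glucose-responsive inhibitor of thioredoxin, fell by 0.81, and ABCG5, a sterol efflux pump of the canaliculus, by 0.61, a call lost without the block (adjusted p = 0.116). ETNPPL, which breaks down phosphoethanolamine, rose by 0.82 with imazalil and stood at -0.03 with fenbuconazole, a gap of 0.85 (SE 0.09, limma adjusted p = 3.91e-08).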
